A study of Homo sapiens with 40 samples.

Results

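Respiratory complex I (NADH:ubiquinone oxidoreductase) was followed through the 45 nuclear genes, of 55765 counted symbols, whose symbol is NDUF followed by A, AB, B, C, S, V or AF and a number. The rule used the symbol alone and no measured value, although it was set with earlier results of these data known. They comprised 38 subunits and the 7 assembly factors NDUFAF1 to NDUFAF7. The subunits were divided by role into 7 core subunits (NDUFS1, NDUFV1 and NDUFV2 among them), 30 supernumerary subunits and NDUFA4, which carries the family name but is now assigned to complex IV.

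Complex I is the entry point of electrons from NADH into the respiratory chain of the inner mitochondrial membrane. It passes them over a flavin and iron-sulphur clusters to ubiquinone and pumps protons. Its catalytic core is encoded partly in the nucleus and partly in mitochondrial DNA, the supernumerary subunits surround and stabilise that core, and assembly factors help to build the enzyme without remaining in it. Nuclear members are translated on cytoplasmic ribosomes and imported, so their mRNAs can be bound by cytoplasmic helicases and loaded into polysomes.

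All libraries came from HEK293, an established line derived from human embryonic kidney, with no engineered genotype in the labels. In the RNA immunoprecipitation (RIP), untransfected cells gave total RNA and RNA recovered with antibodies to endogenous eIF4A1, eIF4A2 or DDX6 (n = 3 each), 3 DEAD-box helicases of translation initiation and repression. In the sucrose gradients, cells transfected with control siRNA or siRNA to CNOT1, the scaffold of the Ccr4-Not deadenylase complex, gave input RNA, a subpolysomal pool (fractions 1 to 5) and a polysomal pool (fractions 6 to 11), with n = 4 each, so that every gradient group carried an siRNA. In the last experiment, total RNA was taken after control siRNA or siRNAs to TNRC6A and TNRC6B, the GW182 proteins of the miRNA pathway (n = 2 each). Each knockdown used 1 siRNA per gene at a single time after transfection, so effects of the siRNA sequence and of the loss of its target cannot be told apart. An IgG immunoprecipitation was not analysed here.

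The 40 libraries of the 12 groups held 15.4 to 46 M counts each (M, mega). Levels are given in CPM, the count of a gene relative to its library's total after TMM scaling, and the 45 genes all passed the filter on low counts in each experiment. NEFM and VIM, intermediate filament genes known to be expressed in this line, were at 3950 to 4590 and 480 to 522 CPM (group means of the 3 unperturbed or control totals), whereas the renal regulator PAX2 was at 0.232 to 0.872 CPM and PTPRC was not counted. CNOT1 was at 630 to 713 CPM in control input and 36.9 to 41.5 CPM after CNOT1 siRNA. In polysomal RNA, the library labelled control siRNA replicate 3 held 28.4 CPM of CNOT1 against 471 to 502 in its group, and the library labelled CNOT1 siRNA replicate 3 held 633 CPM against 24.1 to 31.7. Both were left out of the gradient fit, which used the other 22 of 24 libraries, and counts with them as labelled are given beside the gradient comparisons. In the last experiment mean TNRC6A was 183 CPM with control and 52.6 CPM with TNRC6A/B siRNA, and TNRC6B was 70.3 and 22 CPM, although neither passed the test there. The mRNAs of EIF4A2 and DDX6 were higher in the immunoprecipitate (IP) of their own protein than in total RNA, at 945 against 391 and 514 against 172 CPM, which checks neither antibody. The mRNA of EIF4A1 was lower in the eIF4A1 IP than in total RNA, at 1.79 against 8.6 CPM, a low level in both.

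The 45 mRNAs are short compared with most others in the cell. In GENCODE release 44 on GRCh37 (hg19), their reference transcripts (MANE Select or, failing that, Ensembl canonical) had a median coding sequence of 507 nt and a median 5′UTR of 41 nt. The corresponding medians were 1437 and 146 nt over the 12843 of 17474 tested genes that had a coding transcript in the annotation (73.5%, too few for a check over all genes, so these values are a description). A 5′UTR under 50 nt was annotated for 26 of the 45 members (57.8%), compared with 16.2% of those genes. Subunits and assembly factors differed in length, with a median coding sequence of 433.5 nt (174 to 2181 nt) and 981 nt (507 to 1323 nt), respectively.

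Per kilobase of annotated exon, NDUFS5 was the most abundant member in control input, at 438 ± 28.6 CPM per kb (SD, n = 4). It was followed by NDUFA1 at 302 ± 21.7, NDUFB10 at 117 ± 6.4 and NDUFA8 at 89.9 ± 4.93 CPM per kb. NDUFS5, NDUFB10 and NDUFA8 are small intermembrane-space proteins held together by disulphides, and NDUFA1 is a single-pass membrane subunit needed early in assembly. The SDs of NDUFA8 and of NDUFS6, next in order (82 ± 7.23 CPM per kb) overlap, so their order is not set by these libraries. At the other end stood NDUFV2 at 0.494 ± 0.0675 and NDUFA13 at 1.24 ± 0.292 CPM per kb. NDUFV2 and NDUFA13 share 28.4% and 21% of their exon bases with another gene on the same strand, and the part of that overlap in their low counts was not tested. Such overlap was larger for NDUFB8 (33.8%) and NDUFA7 (32.5%) and was 12% for NDUFC1, and its part in their results below was not tested either. Taking instead the length of the transcript with the longest coding sequence kept NDUFS5 and NDUFA1 in the first 2 places and reordered many others, for example NDUFB1 from place 22 to 7.

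To describe how the helicases associate with these mRNAs, total RNA served as the reference for each IP. Complex I mRNAs were mostly depleted in the eIF4A2 and eIF4A1 IPs. In the DDX6 IP the share called lower was close to that of all genes in the main fit. With the replicate number as a block, 20 of 45 members were lower there, against 30.4% of all genes. In the eIF4A2 IP, 31 of 38 subunits were lower and 0 higher at an FDR below 0.05 (edgeR quasi-likelihood test, adjusted over all genes), against 25.8% of all genes tested that were lower and 24.5% higher. Their median log2 fold change was −1.05 (range −2.33 to 0.21), with an all-gene median of 0.01. Of the 7 assembly factors, 3 were lower and 1 higher (median −0.5). In the eIF4A1 IP, 21 subunits were lower and 1 higher (median −0.76, all genes 0.04), with 26.5% of all genes lower and 26.1% higher, and 2 assembly factors were lower and 1 higher (median −0.21). In the DDX6 IP, 9 subunits were lower and 5 higher (median −0.34, all genes 0.01), with 23.3% and 22.7% of all genes, and 2 assembly factors were lower and 1 higher (median 0.11). These 3 comparisons share the same total RNA libraries.

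Same-numbered RIP libraries deviated together from their group means, and the fit with the replicate number as a block made more calls. It gave 26 subunits lower and 4 higher in the eIF4A1 IP, with 32% and 32.4% of all genes, and 18 lower and 7 higher in the DDX6 IP, with 30.4% and 29.6%. For the eIF4A2 IP the block gave 32 lower and 0 higher, with 31.9% and 30.4%. An IP raises or lowers the share of an mRNA in the recovered RNA, so a lower value here is a smaller share of that RNA and not a measured loss of binding.

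The largest depletion in the eIF4A2 IP was that of NDUFB11, a supernumerary subunit of the membrane arm encoded on the X chromosome (X:47001470-47004865, minus strand). Its 3 eIF4A2 IP libraries held 28.7, 28.2 and 28.9 CPM, whereas the total RNA libraries held 166, 157 and 108 CPM. The groups did not overlap (log2 fold change −2.33, SE 0.22, FDR 2.7e-06). The eIF4A1 IP held 41, 58.3 and 36.9 CPM of NDUFB11 (−1.66, SE 0.21, FDR 3.14e-05), and the DDX6 IP 72.4, 91.2 and 62 CPM (−0.93, SE 0.21, FDR 0.00249).

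NDUFB7, another disulphide-bonded subunit (19:14676890-14682878, minus strand), fell from 95.3, 91.7 and 45.2 CPM in total RNA to 17.7, 20.8 and 8.94 CPM in the eIF4A2 IP (−2.29, SE 0.43, FDR 0.000687). Replicate 3 was the lowest library of NDUFB7 in each of the 4 RIP groups, and the groups did not overlap despite that spread. NDUFS6, a zinc-binding subunit of the NADH-oxidising module, fell from 156, 163 and 99.8 CPM to 35.7, 44.4 and 33 CPM (−1.89, SE 0.3, FDR 0.000189). Its DDX6 IP libraries, at 88, 124 and 73.4 CPM, overlapped those of total RNA.

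NDUFA9, an accessory subunit near the ubiquinone site, was the member most depleted in both of the other IPs. It was at 21.2, 23.5 and 19 CPM in total RNA and at 5.72, 6.42 and 6.2 CPM in the eIF4A1 IP (−1.8, SE 0.16, FDR 2.99e-06). The DDX6 IP held 7.95, 7.89 and 7.09 CPM (−1.47, SE 0.16, FDR 2.44e-05) and the eIF4A2 IP 6.17, 6 and 8.69 CPM. The 3 IPs thus lay close together for NDUFA9, unlike for NDUFB11. NDUFA13, which is also known as GRIM-19, was lower in the eIF4A1 IP (−1.52, SE 0.22, FDR 7.45e-05) and the DDX6 IP (−1.02, SE 0.21, FDR 0.00171), at levels of only 2.75 to 6.03 CPM. NDUFA10, a kinase-like subunit of the membrane arm, was at 119, 125 and 112 CPM in total RNA and 54.8, 57.3 and 49.7 CPM in the DDX6 IP (−1.14, SE 0.13, FDR 3.07e-05), without overlap. Of the core subunits, 4, 5 and 3 of 7 were lower in the eIF4A1, eIF4A2 and DDX6 IPs and 0 were higher, and with the block 4, 5 and 5 were lower. With DDX6, NDUFS1, which carries iron-sulphur clusters, was among those lower (−0.88, SE 0.13, FDR 0.00016).

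Against this pattern, 5 small supernumerary subunits were enriched with DDX6. NDUFC1 was at 139, 199 and 134 CPM in the DDX6 IP and 89.9, 86.2 and 68.7 CPM in total RNA (0.95, SE 0.25, FDR 0.00682). NDUFA1 (X:119005795-119010625, plus strand) was at 170, 274 and 173 CPM against 124, 124 and 90 CPM (0.87, SE 0.25, FDR 0.0114). NDUFB1, the member with the shortest coding sequence, was at 70.2, 114 and 73.7 CPM against 53.1, 53.6 and 43.7 CPM (0.78, SE 0.22, FDR 0.0107). In all 3 genes the lowest DDX6 library was above the highest total RNA library, and replicate 2 was the highest DDX6 library. NDUFA7 (0.69, FDR 0.0131) and NDUFB3 (0.64, FDR 0.019) were the other subunits. Without DDX6 IP replicate 2 the count of members enriched, 6 with NDUFAF6 included, was 2, and without total RNA replicate 3 it was 3. NDUFA1 then had FDR values of 0.0637 and 0.0537, NDUFA7 of 0.0611 and 0.0512 and NDUFB3 of 0.0852 and 0.0795, respectively, and NDUFB1 had 0.0619 without DDX6 IP replicate 2. The enrichment was not particular to DDX6. With the block, NDUFB1 (0.57, FDR 0.00104), NDUFC1 (0.55, FDR 0.00292), NDUFA1 (0.49, FDR 0.00722) and NDUFA7 (0.39, FDR 0.0404) were higher in the eIF4A1 IP too. NDUFB3 was not called there (0.24, FDR 0.0812). Between DDX6 and eIF4A1 these 5 subunits were not called, with or without the block.

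NDUFAF6, an assembly factor related to phytoene synthases, was higher in every IP. Its total RNA libraries held 25.1, 25.7 and 29.1 CPM, and the eIF4A1 IP held 35.7, 43.2 and 34.1 CPM (0.5, SE 0.17, FDR 0.0222). The eIF4A2 IP held 36.4, 44.9 and 36.3 CPM (0.56, SE 0.17, FDR 0.0131) and the DDX6 IP 35, 51.5 and 36.8 CPM (0.63, SE 0.17, FDR 0.00795). No IP library fell to the level of a total RNA library. The call for eIF4A1 was lost without total RNA replicate 1 (FDR 0.0755) or 2 (0.0666) or eIF4A1 IP replicate 2 (0.108), and that for eIF4A2 without total RNA replicate 1 (0.0518) or eIF4A2 IP replicate 2 (0.0599). Without the block, the other member higher in the eIF4A1 IP was NDUFB1, at 64.9, 97.6 and 64.9 CPM (0.6, SE 0.22, FDR 0.0351). It lost that call without total RNA replicate 1 (0.0629), 2 (0.0583) or 3 (0.12) or eIF4A1 IP replicate 2 (0.204).

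**Figure D1:**
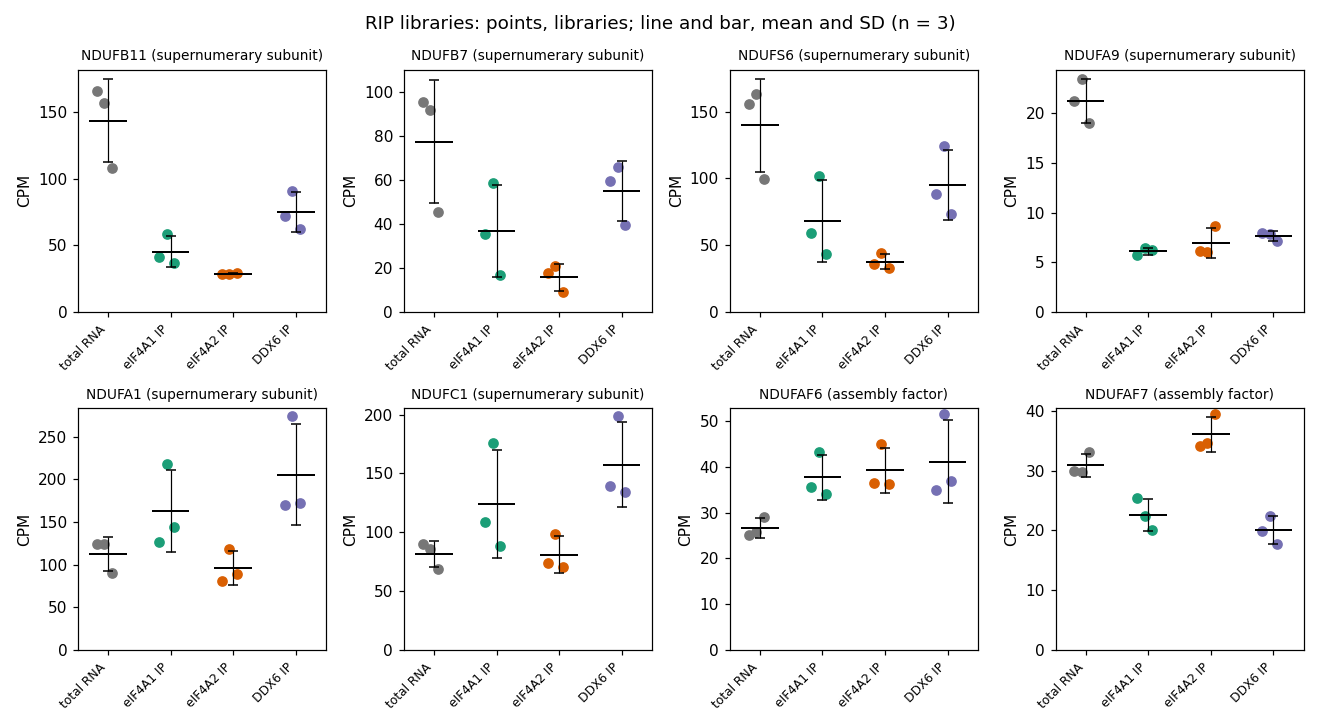
CPM of 8 complex I genes in each RIP library (points), with the group mean and SD (n = 3), on axes that start at 0. NDUFB11, NDUFB7 and NDUFS6 stepped down from total RNA to the eIF4A2 IP, NDUFA9 was low in all 3 IPs, NDUFA1 and NDUFC1 were highest in the DDX6 IP, and NDUFAF6 was above total RNA in every IP library.

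To compare the helicases directly, the IPs were set against each other. Subunit mRNAs were lower with eIF4A2 than with DDX6 for 23 of 38 and higher for 0 (median −0.94, range −1.79 to 0.32), against 11.3% of all genes lower and 9.82% higher. NDUFB7 (−1.79, SE 0.43, FDR 0.0123), NDUFB11 (−1.39, SE 0.21, FDR 0.00223) and NDUFS6 (−1.34, SE 0.3, FDR 0.00893) differed most. Without the block, all of the lower calls were in supernumerary subunits (22 of 30), NDUFA4 and the assembly factor NDUFAF3, with 0 of 7 core subunits. With the block, 31 subunits and 5 assembly factors were lower, against 22% of all genes, and 0 subunits and 1 assembly factor higher, against 18.5%. The core subunits NDUFS8 (−0.82, SE 0.16, FDR 0.00175) and NDUFS3 (−0.45, SE 0.15, FDR 0.029) were then among those lower, 2 of 7. Without DDX6 IP replicate 2, 15 members were lower rather than 24.

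NDUFAF7, a methyltransferase of the mitochondrial matrix, went the other way. It was at 34.2, 34.6 and 39.4 CPM in the eIF4A2 IP, at 19.9, 22.4 and 17.8 CPM in the DDX6 IP (0.85, SE 0.13, FDR 0.00251) and at 25.4, 22.4 and 20.1 CPM in the eIF4A1 IP (0.67, SE 0.13, FDR 0.0304). Every eIF4A2 library was above every library of the other 2 IPs. Between eIF4A2 and eIF4A1, NDUFAF7 was the only member higher and NDUFA7 the only one lower (−0.93, SE 0.2, FDR 0.0494, at 39.4, 44.8 and 43.7 against 74.1, 97 and 71.8 CPM), with 0.973% of all genes higher and 0.0858% lower. NDUFA7 lost its call without any 1 of the 6 libraries, and NDUFAF7 without any 1 except eIF4A1 IP replicate 1, with FDR values up to 0.246 and 0.18 over the alternatives tried. Under the block, 22 subunits and 1 assembly factor were lower with eIF4A2 than with eIF4A1, against 8.7% of all genes, and NDUFAF7 was higher (7.12% of all genes). NDUFB7 was then lower by a log2 fold change of −1.16 (SE 0.17, FDR 0.00173), NDUFA7 by −0.91 (SE 0.15) and NDUFB10 by −0.9 (SE 0.2).

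Between DDX6 and eIF4A1, 0 members were called by edgeR (0.0801% of all genes higher and 0.0114% lower), while 16 were higher and 0 lower at an unadjusted p under 0.05, against 1341 higher and 1097 lower of all 17474 genes. DESeq2 called 2 higher. The log2 fold changes were above 0 for 42 of 45 members, from −0.28 for NDUFV1 to 0.73 for NDUFB11, with a subunit median of 0.37. The block called 15 subunits and 1 assembly factor higher and 0 lower, against 6.08% and 3.82% of all genes. NDUFB11 (0.73, FDR 0.012), NDUFA12 (0.71, FDR 0.00953) and NDUFB7 (0.7, FDR 0.0215) were the largest of these.

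To ask how the mRNAs were distributed over ribosomes, polysomal RNA was compared with subpolysomal RNA. With control siRNA, complex I subunits were largely polysomal. Of 38 subunits, 29 were higher and 6 lower in polysomal RNA (median log2 fold change 0.98, range −0.93 to 2.63, all genes −0.1), against 33.7% of all genes higher and 38.4% lower. The 7 assembly factors were split, 4 higher and 3 lower (median 0.66). With all 24 libraries as labelled, 29 rather than 33 members were higher and 9 were lower, as before. The fractions were each scaled to their own total, so a ratio says where an mRNA is relative to other mRNAs.

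NDUFB6, a membrane-arm subunit (9:32552997-32573160, minus strand), had the highest ratio. It was at 67.2, 65.2 and 49.2 CPM in polysomal libraries 1, 2 and 4 and at 7.87, 10.8, 11.2 and 9.36 CPM in the subpolysomal libraries (2.63, SE 0.13, FDR 4.46e-14). NDUFS5 followed at 346, 411 and 354 CPM against 80.2, 97.8, 97.3 and 75.2 CPM (2.08, SE 0.12, FDR 8.38e-13). NDUFC2 was at 51, 50.5 and 54.4 CPM against 11.8, 15.3, 11 and 12.5 CPM (2.04, SE 0.12, FDR 6.5e-13). None of these 3 groups of libraries overlapped.

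At the subpolysomal end were the assembly factors NDUFAF7 and NDUFAF6 and the core subunit NDUFV2. NDUFAF7 was at 17.8, 18.4 and 19.3 CPM in polysomal and 55.2, 50, 38.3 and 49.7 CPM in subpolysomal RNA (−1.39, SE 0.12, FDR 2.59e-10), and NDUFAF6 at 20.8, 23.8 and 23.1 against 61.2, 62.4, 49.7 and 51.5 CPM (−1.32, SE 0.11, FDR 2.21e-10). NDUFV2, an iron-sulphur subunit of the NADH-oxidising module, was at 0.851, 0.693 and 1.12 against 1.93, 1.4, 1.84 and 1.62 CPM (−0.93, SE 0.22, FDR 0.000685), a very low level. NDUFAF5, the third assembly factor that was subpolysomal, hydroxylates the core subunit NDUFS7.

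After CNOT1 siRNA, 23 subunits were higher and 7 lower in polysomal RNA (median 0.53, range −1.16 to 1.84, all genes −0.01), against 36% and 35.9% of all genes. The assembly factors again had 4 higher and 3 lower (median 0.43). With all 24 libraries as labelled, 26 rather than 27 members were higher and 8 rather than 10 lower. NDUFB6 remained highest at 42.6, 40.5 and 37.1 against 10.7, 10.2, 13.3 and 10.6 CPM (1.84, SE 0.13). NDUFAF3, a partner of NDUFAF4 early in assembly, also had a high ratio (1.43, SE 0.22). NDUFAF6 (−1.31, SE 0.11), NDUFB1 (−1.16, SE 0.11) and NDUFC1 (−1.07, SE 0.17) had the lowest ratios.

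**Figure D2:**
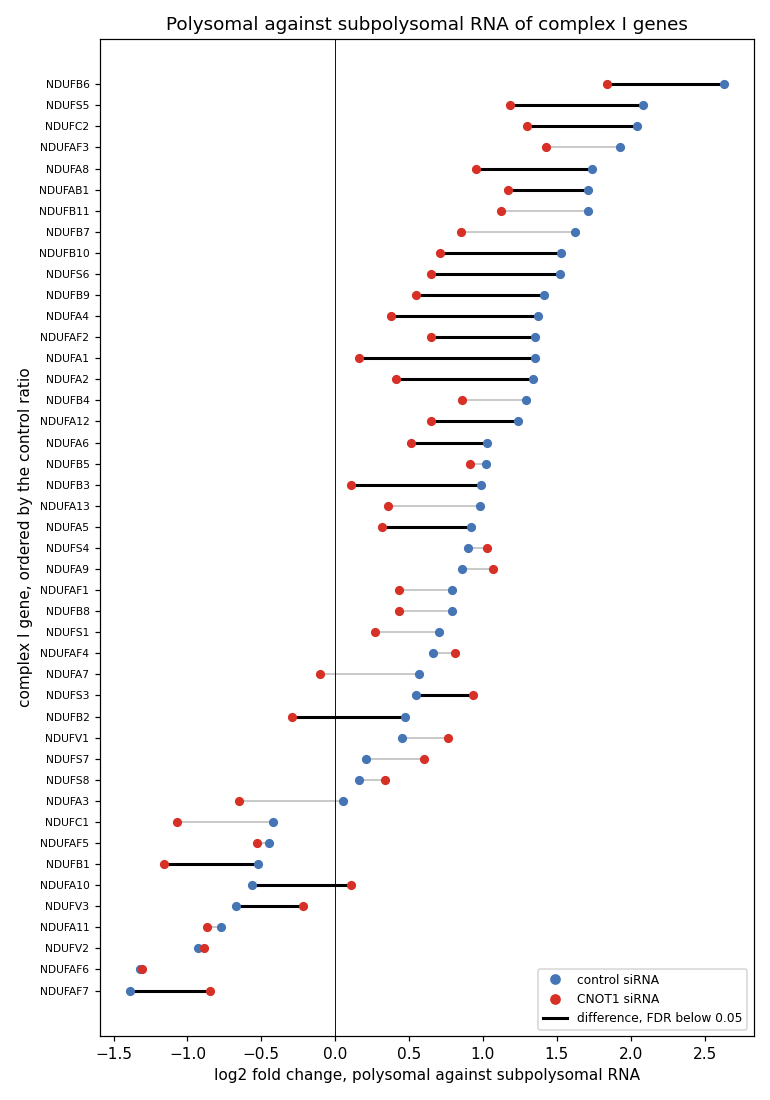
Log2 fold change of polysomal against subpolysomal RNA for 44 complex I genes with control siRNA (blue) and CNOT1 siRNA (red), in order of the control value, with thick lines where the difference passed an FDR of 0.05. Most red points lie left of the blue ones, NDUFB6 is at the top with 2.63 and 1.84, and NDUFAF6 shows almost no shift (−1.32 and −1.31).

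To ask what loss of CNOT1 did to these mRNAs, CNOT1 siRNA was compared with control siRNA in each RNA pool. In input RNA the subunit mRNAs fell. Of 38 subunits, 25 were lower and 0 higher (median −0.39, range −0.86 to 0.11, all genes −0.03), against 21.1% of all genes lower and 19.6% higher. Supernumerary subunits made up 22 of these calls and core subunits 2 (NDUFV1 and NDUFV2, of 7), and NDUFA4 was the last. The summed share of the 38 subunits among all counts was 0.247% ± 0.00635 in control and 0.201% ± 0.00615 in CNOT1 siRNA input (SD, n = 4). Fewer transcripts per cell and fewer counts through a change of other RNAs cannot be told apart in such shares.

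NDUFA1 was at 129, 115, 126 and 137 CPM in control input and at 74.5, 62.5, 67.3 and 75.4 CPM after CNOT1 siRNA, 1.81 times lower (−0.86, SE 0.14, FDR 5.66e-05). NDUFB1 (14:92582466-92588261, minus strand) was at 42.4, 40.1, 38.9 and 35.2 against 24.7, 20.4, 23 and 20.6 CPM (−0.82, SE 0.1, FDR 2.66e-06). NDUFB3, a small membrane-arm subunit (2:201936156-201950473, plus strand), was at 63.4, 58.8, 54.6 and 58.8 against 36.6, 32.3, 31.7 and 33.2 CPM (−0.82, SE 0.11, FDR 3.86e-06). In these 3 genes every control library was above every CNOT1 siRNA library. NDUFS5, the most abundant member, fell from 261, 239, 234 and 225 to 161, 129, 131 and 129 CPM (−0.8, SE 0.11, FDR 9.56e-06).

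The core subunit NDUFV1 was at 110, 110, 119 and 93.6 against 71.1, 88.1, 75.1 and 79.5 CPM (−0.46, SE 0.15, FDR 0.0187), without overlap, and lost its call without control input replicate 3 (FDR 0.0573) or CNOT1 siRNA input replicate 1 (0.057). The assembly factors had 1 lower and 0 higher (median −0.09). That one was NDUFAF5, at 15.1, 15.7, 15.2 and 15.4 against 13, 12.4, 12.2 and 14.1 CPM (−0.25, SE 0.09, FDR 0.0346), and its FDR was 0.0545 to 0.0925 without control input replicate 1, 2, 3 or 4 or CNOT1 siRNA input replicate 1, 2 or 3. With all 24 gradient libraries as labelled in 1 fit, 14 rather than 26 members were lower in input, although the input libraries themselves were the same. Over all genes that fit made 4859 calls in input, compared with 3346 higher and 3611 lower in the main fit.

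In polysomal RNA 23 subunits were lower and 0 higher after CNOT1 siRNA (median −0.47, range −0.9 to 0.15, all genes 0), against 14.6% of all genes lower and 17.1% higher. They were 22 supernumerary subunits and NDUFA4, with 0 of 7 core subunits and 0 of 7 assembly factors. NDUFB1 was at 45, 48.6 and 47.4 CPM with control and 21.1, 26.1 and 28.4 CPM with CNOT1 siRNA (−0.9, SE 0.12, FDR 9.42e-06). NDUFA1 was at 160, 181 and 174 against 80.9, 92.5 and 106 CPM (−0.89, SE 0.16, FDR 0.000274), and NDUFB2, a further small membrane-arm subunit, at 93.1, 91.8 and 82.9 against 45.1, 54 and 46.9 CPM (−0.87, SE 0.12, FDR 1.51e-05). For all 3 the groups were separate.

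The libraries left out, labelled control siRNA replicate 3 and CNOT1 siRNA replicate 3, held 17 and 38.9 CPM of NDUFB1, 74.4 and 165 CPM of NDUFA1 and 33.6 and 65.1 CPM of NDUFB2, each the reverse of the order in the other replicates. With them included as labelled, 0 members were lower in polysomal RNA, and that fit called 0 of all genes there in either direction. Without CNOT1 siRNA polysomal replicate 1, 14 members were lower.

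In subpolysomal RNA the response was mixed, with 4 subunits higher and 8 lower (median −0.01, all genes −0.06), against 17.7% and 24.3% of all genes, and 2 assembly factors higher and 1 lower. NDUFAF2, a paralogue of NDUFA12 that acts late in assembly, rose from 19.8, 22, 25.6 and 23.8 to 32.6, 32.5, 37.1 and 27.8 CPM (0.51, SE 0.1, FDR 0.000231) without overlap. NDUFB9 (0.49, SE 0.11, FDR 0.00136) and NDUFA8 (0.41, SE 0.09, FDR 0.00131) rose there too, although both were lower in polysomal RNA (−0.38 and −0.39). NDUFV1, the flavin-binding core subunit that accepts electrons from NADH, fell from 85.1, 72.6, 119 and 119 to 51.9, 50.9, 64.2 and 69.4 CPM (−0.74, SE 0.16, FDR 0.000568), again without overlap. NDUFAF7 fell from 55.2, 50, 38.3 and 49.7 to 34.2, 34.6, 26.2 and 30.2 CPM (−0.63, SE 0.1, FDR 4.43e-05) and NDUFA10 from 175, 167, 117 and 146 to 115, 101, 79.3 and 102 CPM (−0.61, SE 0.11, FDR 0.000201). Without control subpolysomal replicate 4, 3 rather than 6 members were higher. All 24 libraries as labelled gave 5 members higher and 6 rather than 9 lower.

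**Figure D3:**
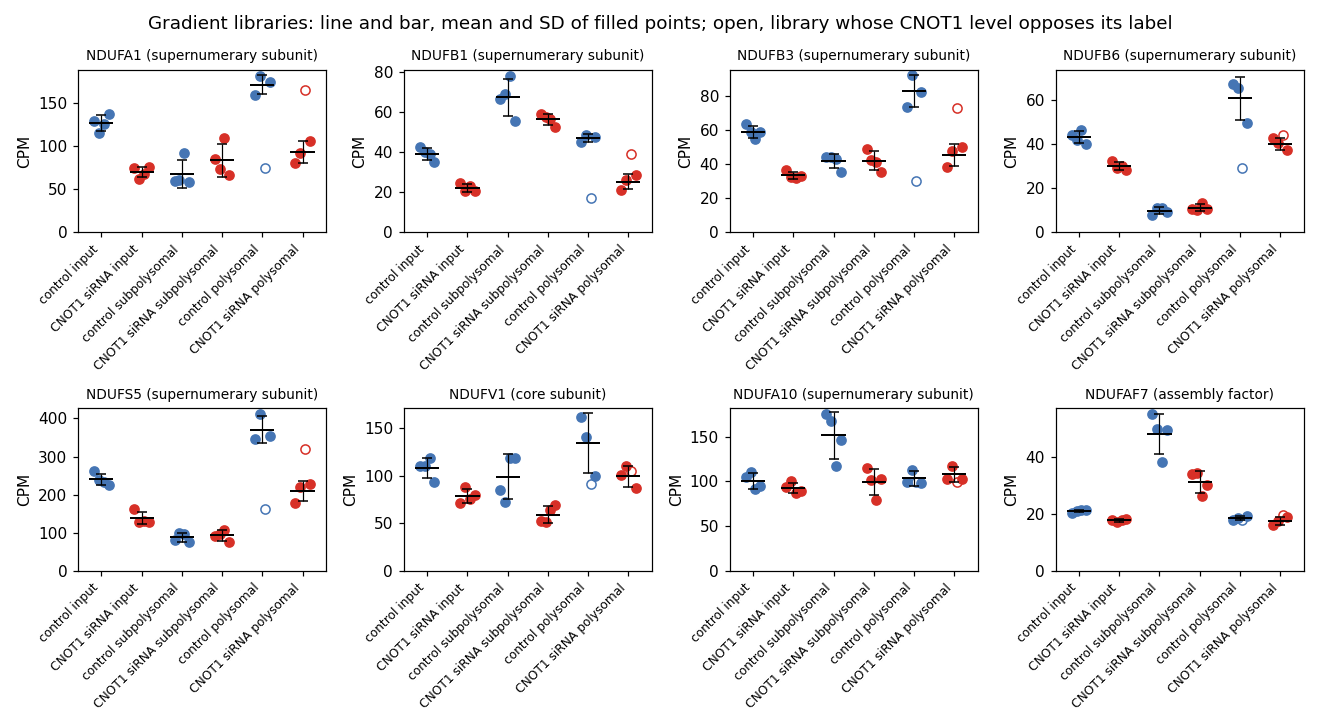
CPM of 8 complex I genes in each gradient library, with group mean and SD over the filled points and open points for the polysomal libraries whose CNOT1 level opposes their label. NDUFA1, NDUFB1, NDUFB3 and NDUFS5 are lower after CNOT1 siRNA in input and polysomal RNA, NDUFV1 is lower in input and subpolysomal RNA, and NDUFA10 and NDUFAF7 are lower in subpolysomal RNA.

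The change of the polysomal/subpolysomal ratio was tested as an interaction, in which the log2 fold change with CNOT1 siRNA in subpolysomal RNA is subtracted from the one in polysomal RNA. It was negative for 17 subunits and positive for 3 (median −0.6, range −1.19 to 0.67, all genes 0.07), against 7.51% and 9.99% of all genes. Supernumerary subunits made up 16 of the negative calls and NDUFA4 the other. The ratio of NDUFA1 fell most (−1.19, SE 0.22, FDR 6e-04), as its polysomal level dropped while its subpolysomal libraries, at 59.5, 60.2, 91.8 and 58.9 against 85.1, 73.5, 109 and 66.1 CPM, overlapped. NDUFA4 (−0.99, SE 0.18, FDR 6e-04) and the thioredoxin-like NDUFA2 (−0.93, SE 0.25, FDR 0.0102) followed.

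The ratio rose for NDUFA10 (0.67, SE 0.17, FDR 0.00941), NDUFAF7 (0.54, SE 0.16, FDR 0.0204), NDUFV3 (0.45, SE 0.12, FDR 0.00884) and the core subunit NDUFS3 (0.37, SE 0.12, FDR 0.0327). In each of these 4 the subpolysomal level was called lower after CNOT1 siRNA and the polysomal level was not called. Among assembly factors NDUFAF2 had a lower ratio. NDUFAF7 lost its call without control polysomal replicate 1 (FDR 0.0949) or CNOT1 siRNA polysomal replicate 4 (0.0616), and in either case 2 rather than 4 members were positive. With all 24 libraries as labelled, 3 members were negative and 2 positive, compared with 18 and 4. Over all genes that fit made 949 calls for the ratio, compared with 1285 negative and 1709 positive in the main fit.

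**Figure D4:**
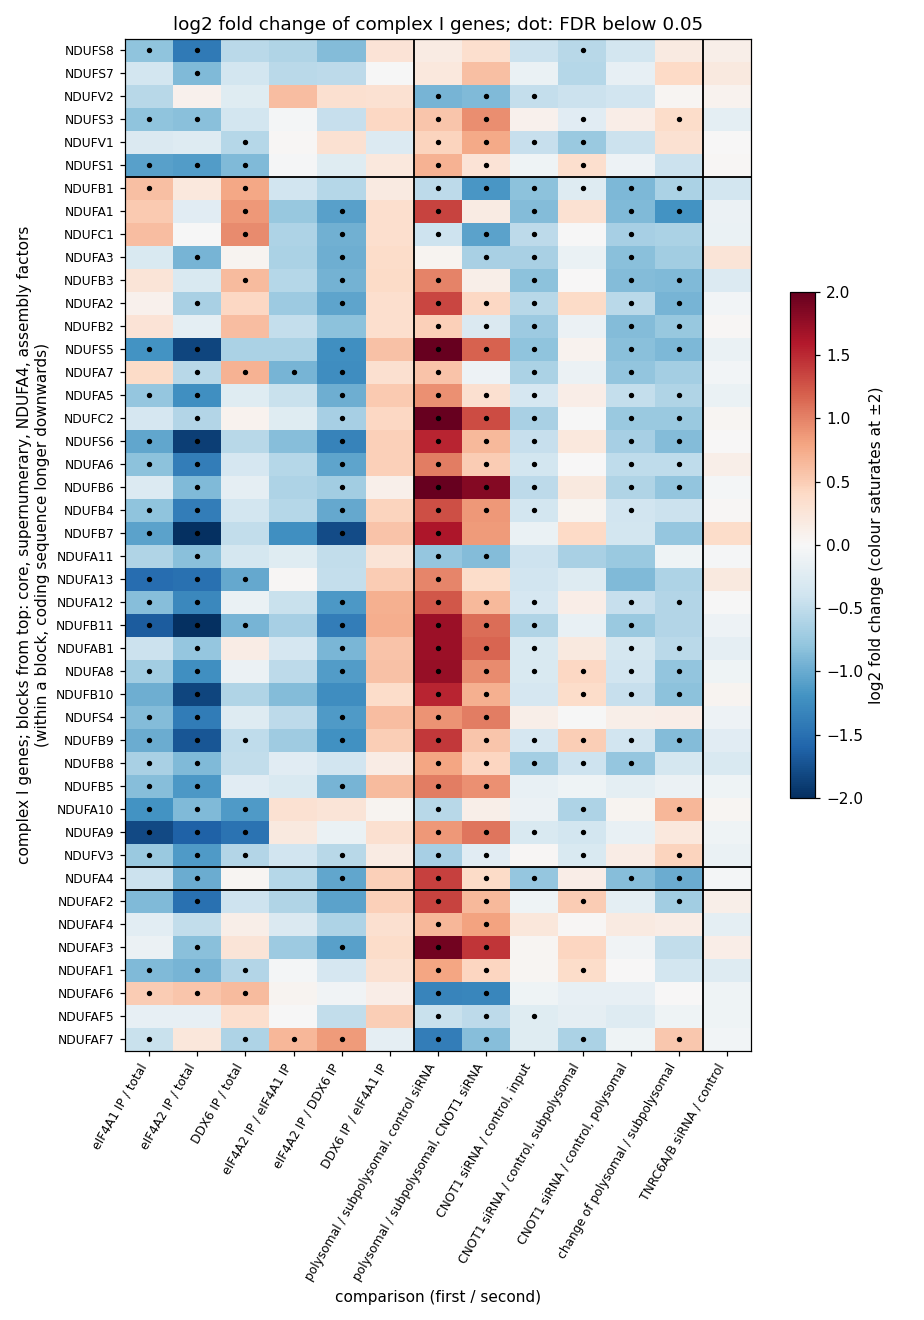
Log2 fold change of 44 of the 45 genes (rows, by role and then by coding length) in the 13 comparisons (columns), with the colour limited at ±2 and a dot at FDR below 0.05. Blue fills the eIF4A2 IP column and, for supernumerary subunits, the CNOT1 siRNA input and polysomal columns, red fills most of the polysomal against subpolysomal column, and the TNRC6A/B column holds 0 dots.

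The members' response to CNOT1 siRNA varied with the length of their coding sequence, a property the choice of genes did not use. Across the 45 genes, which are not independent replicates, Spearman's rho between coding length and log2 fold change was 0.72 in input, 0.8 in polysomal RNA and 0.79 for the change of the ratio. Over all annotated genes tested it was 0.19, 0.25 and 0.25. In subpolysomal RNA the sign was opposite, with a rho of −0.33 across the members (all genes −0.01). The change of the ratio is built from the polysomal and subpolysomal values and is not a separate measurement. Of the 22 members with a coding sequence shorter than 507 nt, 19 were lower in input, against 7 of the 23 others, and 45.4% of all genes below and 18.5% at or above that length were lower. In polysomal RNA 19 of 22 and 4 of 23 were lower, with 42.8% and 12.6% of all genes, and a negative change of the ratio was called for 14 of 22 and 4 of 23, with 28.4% and 7.48%. The shorter members were all subunits and none was a core subunit. Core subunits had coding sequences from 630 nt (NDUFS8) to 2181 nt (NDUFS1). The counts of core and supernumerary subunits given above were thus not matched for length, and role and length were not tested apart.

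Among the longer members, 6 of 16 subunits and 1 of 7 assembly factors were lower in input, and 4 of 16 and 0 of 7 in polysomal RNA. All of the NDUFAF genes were among these longer members. Whether their smaller response goes with role or with length was not tested. Coding length moved with the RIP results too, with a rho of −0.57 for DDX6 against total RNA (all genes −0.26) and 0.59 for eIF4A2 against DDX6 (all genes 0.39). With eIF4A1 the rho was −0.38 against total RNA (all genes −0.17), and for eIF4A2 against eIF4A1 it was 0.63 (all genes 0.42). For eIF4A2 against total RNA it was −0.03 across the members. All 5 subunits enriched with DDX6 were below 507 nt, where 5 of 22 members and 44.2% of all genes were higher in that IP, against 1 of 23 members and 20.9% of all genes at or above that length. The share of short members enriched was thus below that of short genes in general. Whether length itself or another property of these mRNAs accounts for the relation was not tested.

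**Figure D5:**
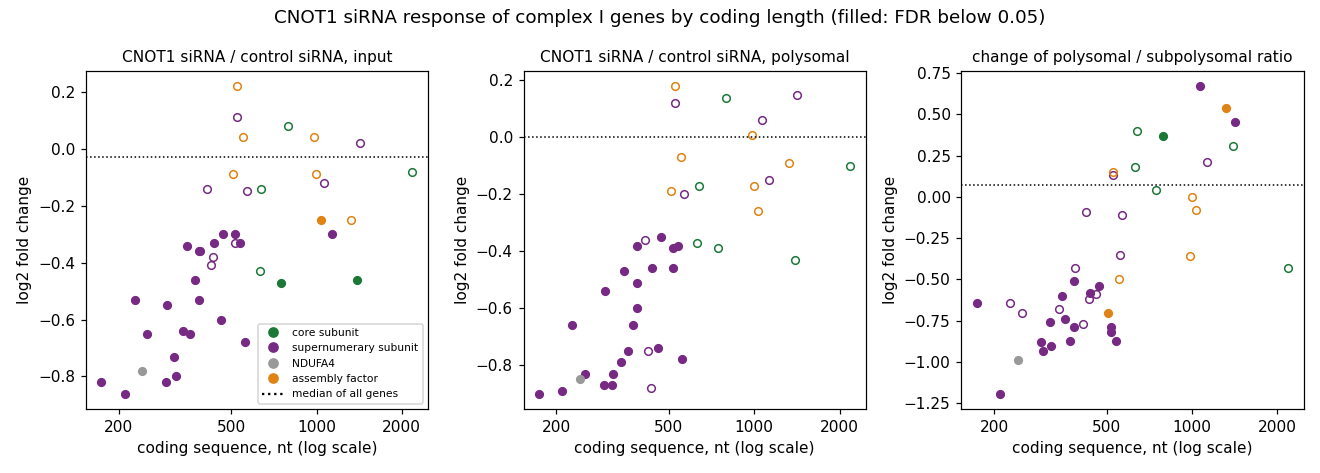
Log2 fold change against coding-sequence length (nt, log scale) for 44 of the 45 genes in CNOT1 siRNA input, CNOT1 siRNA polysomal RNA and the change of the polysomal/subpolysomal ratio, coloured by role, with filled points at FDR below 0.05 and a dotted line at the median of all genes. Values climb from left to right in each panel, with Spearman's rho of 0.72, 0.8 and 0.79 across all 45 genes.

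The RIP and gradient experiments share no libraries and can be set beside each other. Of the 34 members lower in the eIF4A2 IP, 28 (82.4%) were higher in control polysomal than subpolysomal RNA, compared with 33 of all 45 members (73.3%). Over the 16473 genes tested in both experiments the corresponding shares were 64.7% and 34.8%. Of the same 34 members, 18 (52.9%) were lower after CNOT1 siRNA in input, about the share among all 45 members (26, 57.8%), with 25.8% and 21.6% over all genes. Of the 6 members enriched with DDX6, 5 were among those 26, namely NDUFA1, NDUFA7, NDUFB1, NDUFB3 and NDUFC1, and the exception was NDUFAF6. Over all genes, 24.7% of those enriched with DDX6 and 21.6% of all were lower in input. Those 5 members have coding sequences shorter than 507 nt, and 19 of the 22 members of that length were lower in input.

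Complex I genes outside the symbol rule were examined as a fixed list. The 7 mitochondrially encoded core subunits, whose mRNAs are translated inside mitochondria, had mean levels of 0.161 (MT-ND6) to 9.62 CPM (MT-ND4) in control input and of 0.38 to 93.1 CPM, for the same genes, in control subpolysomal RNA. All 7 were lower in polysomal than in subpolysomal RNA with control siRNA (median −5.09), opposite to most nuclear subunits, and 6 of 7 with CNOT1 siRNA. The shares of all genes lower were 38.4% and 35.9%. After CNOT1 siRNA, 5 of the 7 were lower in input (median −0.56), the direction of most nuclear subunits there, with 21.1% of all genes lower. In subpolysomal RNA 4 were lower (median −0.67, 24.3% of all genes) and in polysomal RNA 0. None was higher in these 3 pools. The 3 that could be tested in the RIP, MT-ND1, MT-ND2 and MT-ND4, were lower in each IP. Their means in total RNA were only 0.478, 0.8 and 4.35 CPM, and no IP library held over 16 counts of any of them. The size of these differences thus rests on very few counts. Of 12 assembly factors under other symbols, 6 were lower and 1 higher in the eIF4A2 IP (25.8% and 24.5% of all genes), 3 lower and 4 higher in the eIF4A1 IP (26.5% and 26.1%) and 1 lower and 4 higher in the DDX6 IP (23.3% and 22.7%). After CNOT1 siRNA, 6 were lower and 1 higher in input (median −0.29, with 21.1% and 19.6% of all genes), 7 and 1 in subpolysomal RNA (24.3% and 17.7%) and 5 and 1 in polysomal RNA (14.6% and 17.1%). The polysomal count thus differed from that of the NDUFAF genes, of which 0 of 7 were called, and the difference was not tested.

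To ask whether the GW182 proteins affect the same mRNAs, TNRC6A/B siRNA was compared with control siRNA in total RNA. With 2 libraries per group, edgeR called 0 members and 0% of all genes in either direction, and 0 members had an unadjusted p under 0.05, against 173 genes higher and 116 lower of 14064. DESeq2 called 1 gene and 0 members. The lowest log2 fold change was that of NDUFB1, at 25 and 35.6 CPM with control and 17.5 and 29.7 CPM with TNRC6A/B siRNA (−0.36, SE 0.37), and the highest that of NDUFB7, at 13.7 and 1.62 against 16 and 3.92 CPM (0.37). Both pairs of libraries overlapped, and for NDUFB7 the library number separated the values more than the siRNA did.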

How the data were processed

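RNA from HEK293 cells was sequenced as TruSeq stranded mRNA libraries. Per the labels and methods, the authors aligned reads to hg19 with TopHat2 and deposited unnormalised counts per gene symbol from HTSeq (versions and strand option are not given in the sources used here). Without the strand option, overlapping antisense genes may share reads. A further deposited table holds the authors' own comparisons (log2 fold change, CPM, likelihood ratio, p-value and FDR) and was not used. Reads carry no molecular identifiers.

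In R 4.3.3, edgeR 4.0.16 was run on these counts with 1 quasi-likelihood fit per experiment (12, 22 and 4 libraries), filterByExpr, TMM factors and Benjamini-Hochberg FDR below 0.05 over the 17474, 17115 and 14064 genes kept. The tests are two-sided. Nothing states that replicates were separate cultures, so p-values measure the spread between these libraries. The 45 genes and the lists were chosen with earlier results of these data known. For each comparison, up to 3 called members with the largest increase and up to 3 with the largest decrease are given in full, or the extremes where none was called, and other values come from the same tables. Replicate numbers in the RIP paired the samples (18 of 18 same-numbered pairs had r above 0.1, from 0.138 to 0.628, and other pairs had a median of −0.178), as they did between the siRNAs within each gradient fraction. The alternatives tried were RLE factors, DESeq2 1.42.0, leaving off the filter, only the libraries compared, a replicate block, all 24 gradient libraries and leaving out each replicate. The scripts were tested on simulated data. Gene positions and transcript lengths came from GENCODE release 44 on GRCh37, 1-based. Single values of 1 of the 45 genes are not reported here or drawn, and the counts and medians include it.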

Additional observations from a re-analysis of the deposited data

Results flagged for a closer look

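In groups of 4 libraries, a library was marked where its gap to the nearest of the others took up more of the group's range than Dixon's test allows at 95%, and chance marks about 1 in 20 groups. Of 86 groups tested, 9 were marked. CNOT1 was at 28.4 CPM in the library labelled control siRNA polysomal replicate 3 (others 471 to 502) and at 633 CPM in that labelled CNOT1 siRNA polysomal replicate 3 (others 24.1 to 31.7). Among members, control subpolysomal replicate 3 stood high for NDUFA1 (91.8 CPM, others 58.9 to 60.2) and NDUFB2 (79.2 CPM, others 57.8 to 61.2), and CNOT1 siRNA subpolysomal replicate 3 for NDUFB6 (13.3 CPM, others 10.2 to 10.7) and NDUFB9 (134 CPM, others 96.4 to 99.7). Control subpolysomal replicate 4 was low for NDUFB3 (35.7 CPM, others 43.3 to 44.1). In CNOT1 siRNA input, replicate 1 was high for NDUFS5 (161 CPM, others 129 to 131), and replicate 3 was low for NDUFAF2 (34 CPM, others 38.1 to 38.7).

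The effect of CNOT1 siRNA differed between polysomal and subpolysomal RNA by the interaction test for the named members with the largest differences (edgeR). The log2 difference was 0.67 for NDUFA10, 0.54 for NDUFAF7 and 0.45 for NDUFV3, and −1.19 for NDUFA1, −0.99 for NDUFA4 and −0.93 for NDUFA2.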

How the results depend on the processing

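The replicate block moved the counts of members called as follows. In the eIF4A1 IP against total RNA 5 rather than 2 were higher, in the DDX6 IP against total RNA 20 rather than 11 were lower, in eIF4A2 against eIF4A1 23 rather than 1 were lower, and in DDX6 against eIF4A1 16 rather than 0 were higher. It moved no other count of members by over 1.5 times. Polysomal and subpolysomal libraries of a number did not deviate together, and there the block lost NDUFA11 (FDR 0.0853) and NDUFC1 (0.0515) with control siRNA and NDUFA11 (0.0522) and NDUFA3 (0.0955) with CNOT1 siRNA. In the TNRC6 experiment 2 pairs share only a number, and the block called 763 genes and 0 members.

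With no filter on low counts, 4 members were higher in the eIF4A1 IP, 17 lower in the DDX6 IP, 19 lower in eIF4A2 against eIF4A1, 2 higher in DDX6 against eIF4A1, 10 rather than 6 higher in CNOT1 siRNA subpolysomal RNA and 1 rather than 4 higher for the change of the ratio. With only the libraries compared, the eIF4A1 IP had 4 higher, and there were 0 higher and 0 lower in eIF4A2 against eIF4A1, 1 rather than 0 higher in CNOT1 siRNA input, 3 higher and 5 rather than 9 lower in subpolysomal RNA and 1 higher for the ratio. RLE factors gave 0 lower in eIF4A2 against eIF4A1 and 2 higher for the ratio. DESeq2 gave 2 lower in eIF4A2 against eIF4A1 and 2 higher in DDX6 against eIF4A1. All 24 gradient libraries as labelled gave 14 rather than 26 lower in input, 0 rather than 23 lower in polysomal RNA, and 2 higher and 3 rather than 18 lower for the ratio. That fit called 0 of all genes for CNOT1 siRNA in polysomal RNA. The cause of these moves was not tested.

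Leaving out each replicate in turn gave 0 to 3 members higher and 18 to 28 lower in the eIF4A1 IP, 0 to 1 and 25 to 33 in the eIF4A2 IP, 2 to 6 and 9 to 13 in the DDX6 IP, 0 to 1 and 0 to 0 in eIF4A2 against eIF4A1, and 1 to 1 and 15 to 28 in eIF4A2 against DDX6. For polysomal against subpolysomal RNA it gave 29 to 33 and 7 to 9 with control and 25 to 27 and 7 to 10 with CNOT1 siRNA. For CNOT1 siRNA it gave 18 to 24 lower in input, 3 to 7 higher and 7 to 9 lower in subpolysomal RNA, 14 to 26 lower in polysomal RNA, and 2 to 4 higher and 14 to 23 lower for the ratio. In the TNRC6 comparison NDUFB7 (0.37) was 2.6 without control total RNA replicate 1, and turned to −0.41 without control replicate 2 and to −0.98 without TNRC6A/B siRNA replicate 1. A lone library was there assumed to vary like the other groups.

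Single members kept their direction and side of the threshold in 264 of their values with DESeq2 (8 lost), 267 with RLE factors (6 lost), 241 with only the libraries compared (30 lost) and 102 with all 24 libraries (63 lost).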

Other observations

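The spread between replicates was uneven among the members. The SD of log2 CPM within groups was 0.75 for NDUFAF2 and 0.66 for NDUFB7 in the RIP. In the TNRC6 experiment it was 1.81 for NDUFB7, 1.45 for NDUFA13 and 1.08 for NDUFS7, and in the gradients 0.92 for NDUFB7. The median over the members was 0.29 in the RIP, 0.16 in the gradients and 0.28 in the TNRC6 experiment, against 0.24, 0.19 and 0.3 over all annotated genes tested. Across the 45 genes, which share libraries and are not independent, the spread had a Spearman's rho with the GC content of the coding sequence of 0.36, 0.54 and 0.56, and over all annotated genes of 0.29, 0.33 and 0.36.

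By group mean, 26 of the 38 subunits had their highest RIP level in total RNA and 11 in the DDX6 IP, and 31 had their lowest in the eIF4A2 IP. In the gradients, 28 subunits were highest in control polysomal RNA. The median subunit level was 86.1 CPM in control and 54.7 CPM in CNOT1 siRNA polysomal RNA, while that of the 7 assembly factors was 31.5 and 31.7 CPM. In input the subunit median was 59.8 and 39.4 CPM, and the assembly factor median 26.1 and 26.8 CPM.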
